A study of Mus musculus with 8 samples.

Results

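The Hox genes of the HoxA, HoxB, HoxC and HoxD clusters were followed in mRNA of inguinal white adipose tissue (ING WAT), the subcutaneous fat depot of the groin. Members were the genes whose symbol is Hox, a cluster letter from a to d and a number. Each was measured over the transcripts annotated to it, and transcripts annotated to antisense or host genes were left out. Long noncoding transcripts annotated to a member were kept, such as that of Hoxc5 described below. The rule gave 39 genes out of 38375 with a value, with 11 in HoxA, 10 in HoxB, 9 in HoxC and 9 in HoxD. Of these, 38 had their symbol in the deposited gene column, and Hoxd4 was added because its own transcripts were listed there under Hoxd3.

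Poly(A)+ RNA was sequenced from C57BL/6j mice at postnatal day 21 (PN21, n = 4, the end of weaning) and at postnatal day 98 (PN98, n = 4, young adulthood). Each mouse gave 1 library of whole tissue, and no genotype or treatment is named in the labels. Per the study's methods, mice had been moved by PN98 to a different diet from that at PN21, either a second standard diet or a western style diet. Which of these the sequenced PN98 mice ate is not given, so age and diet cannot be told apart. Food was limited the night before dissection so that mice were fasted. The unit is FPKM, a fragment count scaled for transcript length and for library size, so levels can be set side by side between genes. The PN21 mice were m1, m49, m138 and m145 and the PN98 mice m35, m106, m114 and m125, and values per mouse are given in this order.

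Hox genes encode homeodomain transcription factors that give cells a position along the head-to-tail axis of the embryo. Within each cluster the genes lie in the order in which they are used along the body, from position 1 at the anterior end to position 13 at the posterior end, and genes at the same position in different clusters are paralogs. Adult mesenchymal cells, adipocyte progenitors included, keep a Hox pattern of the place where they arose, and fat depots differ in it. The pattern is held by Trithorax and Polycomb complexes, and Hox proteins bind DNA together with the TALE cofactors of the Pbx, Meis and Pknox families.

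The labelled depot was checked against other positional genes. Tbx15, a T-box factor, and Shox2, a homeobox factor, both known from subcutaneous fat, were present in all 8 mice, at 4.10 to 13.2 FPKM for Tbx15 and 4.10 to 10.1 FPKM for Shox2. Wt1 and Tcf21, which mark visceral fat, did not exceed 0.0395 FPKM for Wt1 and 0.0337 FPKM for Tcf21 in any mouse. These genes were picked from a list of 40 positional and depot genes, so they are no full check of the depot. In the same list En1 was only at 0.414 to 0.838 FPKM, and Gpc4 was at 9.13 to 23.8 FPKM. Y-linked Ddx3y was at 18.1 to 25.9 FPKM in all 8 mice and Xist at no more than 0.832 FPKM.

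The libraries differed in the RNA of other cell types. The summed FPKM of 12 lymphocyte markers, Cd3e among them, was 454 to 1103 at PN21 and 999 in m35, but 189.7, 57.8 and 20.8 in the other PN98 mice, so m35 stood with the PN21 mice. Skeletal muscle markers summed to 41.7 to 854 FPKM at PN21 and 621 to 4391 at PN98, epithelial markers to 4.44 to 48.3 and 1.88 to 3.47, stromal progenitor markers to 330 to 564 and 235 to 490.2, and adipocyte markers to 14472 to 26680 and 38118 to 49251. In bulk tissue, fewer cells of a type and less RNA per cell cannot be told apart. The part of these cell types in the Hox values was not tested, and counts of Hox genes are therefore also given without m35. Mitochondrially encoded genes accounted for between 50.7 and 59.7% of each PN21 library and between 42.1 and 51.6% of each PN98 library, by FPKM. The tables hold no read counts, so the depth behind a value is unknown.

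The clusters lie on 4 chromosomes (mm10, 1-based): HoxA at chr6:52155590-52260880, HoxB at chr11:96194316-96368256, HoxC at chr15:102921103-103036852 and HoxD at chr2:74668310-74765142. HoxA is on the minus strand and the others are on the plus strand. Promoter windows, the 250 bases before a RefSeq start (GRCm38.p6, the same assembly), were at hand for 22 of the 39 genes, 24 windows in all. A Hox window held a median of 12.5 CpG dinucleotides, with a range of 2 to 35, against a median of 6 over all 32851 windows of the genome. The 13 windows of Hox genes that passed the filter on low values had a median of 12 and the 11 windows of those that did not had a median of 13, so the medians of both were close. The motif TGATNNAT, the form bound by Hox and Pbx together, was searched on both strands. It was in 4 of the 24 Hox windows, those of Hoxa2, Hoxb1, Hoxb8 and a start of Hoxd11, and in 7.68% of all windows. This is a match of letters and no evidence of binding. Below are windows that hold no annotated exon: Hoxb8 and Hoxd8 as measured genes, Hoxd13 as a gene listed at 0 in every mouse, and the antisense gene Hoxd3os1, which is described with the noncoding genes. Capitals mark CpG.
Hoxb8: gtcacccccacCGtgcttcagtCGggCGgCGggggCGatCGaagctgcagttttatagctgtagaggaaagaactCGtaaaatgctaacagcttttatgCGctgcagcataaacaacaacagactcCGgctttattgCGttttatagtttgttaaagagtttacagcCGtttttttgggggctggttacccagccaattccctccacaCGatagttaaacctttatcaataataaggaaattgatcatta
Hoxd8: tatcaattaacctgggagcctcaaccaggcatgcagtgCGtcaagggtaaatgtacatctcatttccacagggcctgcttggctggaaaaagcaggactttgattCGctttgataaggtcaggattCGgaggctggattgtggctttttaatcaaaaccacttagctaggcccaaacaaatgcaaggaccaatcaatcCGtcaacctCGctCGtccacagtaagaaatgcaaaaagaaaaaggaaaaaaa
Hoxd13: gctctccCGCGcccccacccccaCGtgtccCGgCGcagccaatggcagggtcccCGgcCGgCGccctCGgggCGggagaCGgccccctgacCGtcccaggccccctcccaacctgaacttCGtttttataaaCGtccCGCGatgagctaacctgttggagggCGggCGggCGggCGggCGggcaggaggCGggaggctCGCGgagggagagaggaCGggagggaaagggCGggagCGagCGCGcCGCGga
Hoxd3os1: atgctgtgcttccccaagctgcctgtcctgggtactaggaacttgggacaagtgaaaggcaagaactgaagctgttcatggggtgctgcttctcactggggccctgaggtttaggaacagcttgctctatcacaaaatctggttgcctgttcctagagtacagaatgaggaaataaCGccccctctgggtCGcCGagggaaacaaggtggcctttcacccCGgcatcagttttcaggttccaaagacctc
The windows are chr11:96281655-96281904 on the plus strand for Hoxb8 (12 CpG), chr2:74704365-74704614 on the plus strand for Hoxd8 (6 CpG), chr2:74667975-74668224 on the plus strand for Hoxd13 (31 CpG) and chr2:74716131-74716380 on the minus strand for Hoxd3os1 (4 CpG). The most CpG-dense of the 4 is that of Hoxd13.

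Hox expression in ING WAT was highest at the central positions and low at both ends of the clusters. Hoxc8, a gene of thoracic position, was highest of all Hox genes, with a mean of 38.6 FPKM over the 8 mice. It held 24.1% of the summed Hox FPKM and was above Hoxc6, the next gene (mean 16.0 FPKM), in 8 of 8 mice. Hoxc6 was in turn above Hoxa7 (mean 11.9 FPKM) in 8 of 8 mice. From there on neighbours in the order were close: Hoxa7 was above Hoxc10 (11.1 FPKM) in 5 of 8 mice, Hoxc10 above Hoxa9 (10.8 FPKM) in 3 and Hoxa9 above Hoxd8 (8.69 FPKM) in 5. Hoxc9 (7.04 FPKM), Hoxd4 (6.34 FPKM) and Hoxa10 (5.91 FPKM) followed. In HoxB the highest gene was Hoxb7, at a mean of 4.80 FPKM.

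**Figure D1:**
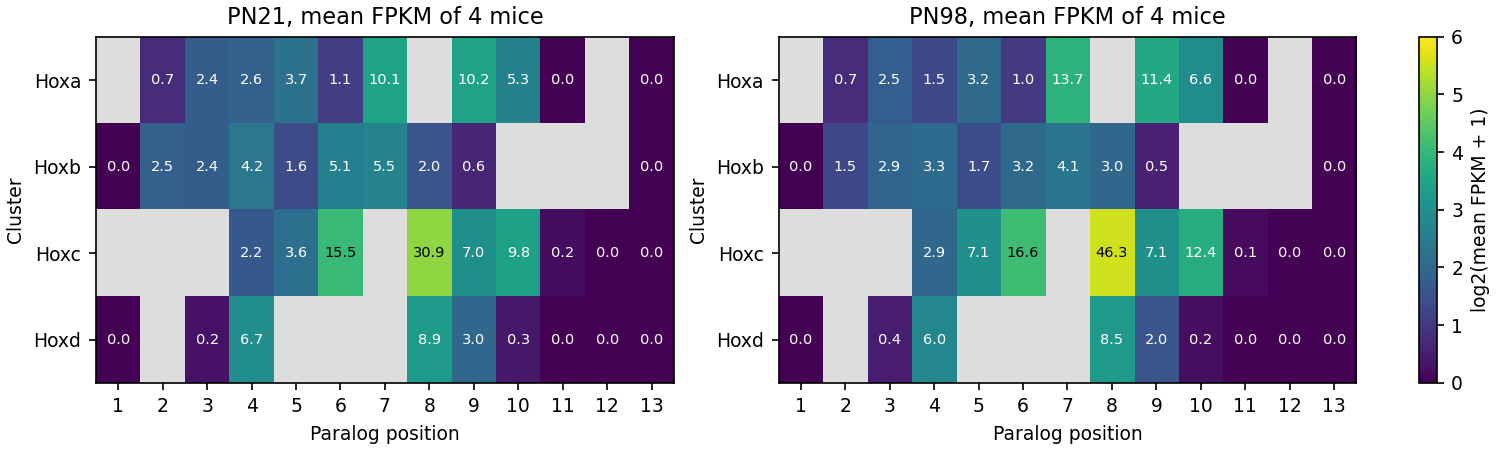
Mean FPKM of each Hox gene over the 4 PN21 mice (left) and the 4 PN98 mice (right), by cluster (rows) and paralog position 1 to 13 (columns); the colour is log2(mean FPKM + 1), the number is the mean FPKM, and grey marks positions with no gene or with none shown. Hoxc8 is the brightest cell at both ages (30.9 and 46.3 FPKM), and positions 11 to 13 are dark in every cluster.

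By region of the cluster, the 15 genes of the central positions 4 to 8 held 70.5% of the summed Hox FPKM, the 16 genes of positions 9 to 13 held 23.9% and the 8 genes of positions 1 to 3 held 5.53%. By cluster, HoxC held 50.5%, HoxA 24.5%, HoxB 13.8% and HoxD 11.3%. In all 15 central genes the mean FPKM was at least 1.

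A mean of at least 1 FPKM over the 8 mice was required for a test, and 23 of the 39 genes met it. Of the 16 that did not, 6 were listed at 0 in all 8 mice: Hoxb13, a prostate and tail gene, Hoxc12, Hoxc13, a hair follicle gene, and Hoxd11, Hoxd12 and Hoxd13, the limb and genital genes of HoxD. Hoxa11, Hoxa13, Hoxb1 and Hoxd1 had values above 0 in 1 to 4 mice and none above 0.0406 FPKM. Hoxc11, Hoxd3 and Hoxd10 had means of 0.140, 0.295 and 0.243 FPKM. Hoxa2, a gene of hindbrain patterning, and Hoxb9 had means of 0.699 and 0.513 FPKM.

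Between PN21 and PN98 no Hox gene passed the test, which does not show that the levels were alike. The mean FPKM went from 3.59 to 7.12 for Hoxc5, from 30.9 to 46.3 for Hoxc8 and from 2.62 to 1.47 for Hoxa4. The Hoxc8 means include a low m138 at PN21 and a high m114 at PN98. Most of the Hoxc5 sum was a noncoding transcript, as given below. The test was limma on log2(FPKM + 1) over 16107 genes, two-sided, with Benjamini-Hochberg adjustment. Of these genes, 5.3% passed at an adjusted p under 0.05 (2.36% upwards and 2.94% downwards with age), against 0 of the 23 Hox genes, whose lowest adjusted p was 0.0965. With so few members, that count is near the share of all genes. With an unadjusted p under 0.05 there were 5 Hox genes, 3 higher and 2 lower, or 21.7%, against 27.2% of all genes (8.18% higher and 19.1% lower). Estimates were above 0 for 12 Hox genes and below 0 for 11, and their median log2 fold change was 0.02. Over all genes, 33% were above 0 and the median was -0.21. Fold changes here are on the log2(FPKM + 1) scale, which understates the change of low genes.

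All 23 estimates lay between -0.54 (Hoxa4) and 0.77 (Hoxc5), while 14.1% of all genes lay beyond 1 in either direction. The 95% interval stayed within -1 and 1 for 20 of the 23, and it reached past -1 for Hoxb2 and past 1 for Hoxc5 and Hoxc8. The median SD between mice of the same age was 0.28 for Hox genes and 0.35 for all genes on the log2 scale. Within PN21 it was 0.30 for both, and within PN98 it was 0.24 for Hox genes and 0.36 for all genes. The Hox genes and all genes were not matched for level in these comparisons, and the median level of the tested Hox genes was 4.13 FPKM. The values therefore do not show that Hox genes were more stable than other genes of their level.

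**Figure D2:**
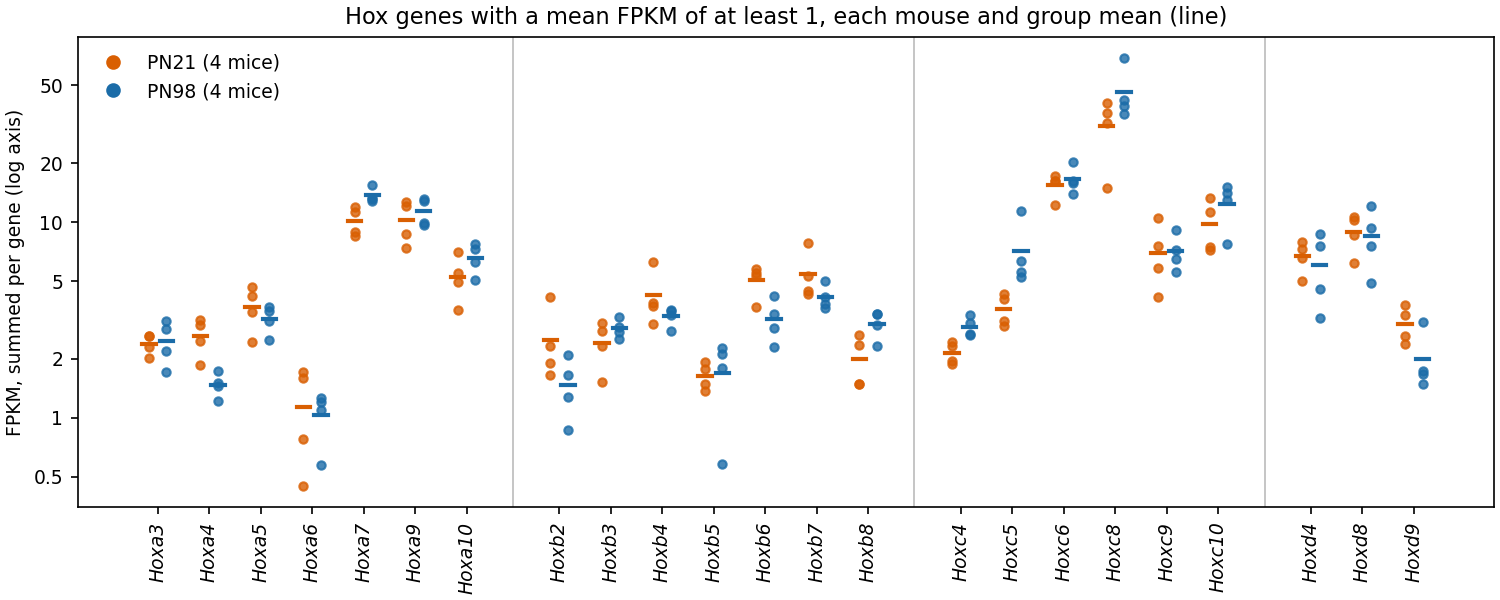
FPKM per gene (log axis) of the 23 Hox genes with a mean of at least 1 FPKM, with each of the 4 PN21 mice (orange) and 4 PN98 mice (blue) as a point and the group mean as a line; clusters are divided by vertical lines. The groups are apart for Hoxa4, Hoxa7, Hoxc4 and Hoxc5 and overlap for the other 19.

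The PN21 and PN98 values did not overlap for 4 of the 23 genes, or 17.4%, against 16.1% of all genes tested (6.06% with all PN98 values above and 10% with all below). The 4 were Hoxa4, lower at PN98, and Hoxa7, Hoxc4 and Hoxc5, higher at PN98. A share this near to that of all genes is not a result about the Hox genes.

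In HoxA, 7 of 11 genes were tested, with 4 estimates above 0 and 3 below and a median of 0.02. Hoxa4, a gene of the neck and upper trunk, was at 2.99, 3.16, 1.87 and 2.47 FPKM at PN21 and at 1.22, 1.73, 1.50 and 1.45 FPKM at PN98. Each PN98 mouse was below each PN21 mouse, and m138 was the lowest at PN21. The means were 2.62 ± 0.58 and 1.47 ± 0.21 FPKM (SD, n = 4 each), a log2 fold change of -0.54 (SE 0.17, adjusted p = 0.0965).

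Hoxa7, a trunk gene that is also active in blood cell precursors, was the highest gene of HoxA. It was at 11.3, 8.93, 8.49 and 11.9 FPKM at PN21 and at 12.8, 13.2, 13.3 and 15.4 FPKM at PN98. All PN98 mice were above all PN21 mice, by a margin that was small beside the range of each group. The log2 fold change was 0.41 (SE 0.16, adjusted p = 0.153).

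Part of the Hoxa7 sum came from a transcript annotated as subject to nonsense-mediated decay, at means of 0.610 ± 0.572 FPKM at PN21 and 2.35 ± 1.22 at PN98 (SD, n = 4 each). The main protein-coding transcript was at 8.29 ± 2.39 and 9.57 ± 0.60 FPKM and its groups overlapped. With protein-coding transcripts alone, the log2 fold change of Hoxa7 was 0.24 (adjusted p = 0.363).

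Since Hoxa4 and Hoxa7 lie in the same cluster and their estimates had opposite signs, their ratio within each mouse was computed, which no scaling of the library can change. The ratio of Hoxa7 to Hoxa4 FPKM was 3.77, 2.83, 4.55 and 4.82 at PN21 and 10.5, 7.63, 8.89 and 10.7 at PN98. The pair was chosen after its values were seen, so the ratio is a description and was given no test.

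The other tested HoxA genes had estimates of 0.02 (Hoxa3, needed for thymus and parathyroid), -0.15 (Hoxa5, a regulator of lung and thorax), -0.04 (Hoxa6), 0.16 (Hoxa9, a gene of blood progenitors) and 0.29 (Hoxa10, needed in the uterus), with adjusted p between 0.397 and 0.958. Of the Hoxa9 sum, 53.4% was a noncoding processed transcript, as was 79.6% of the Hoxa10 sum.

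In HoxB, 7 of 10 genes were tested, with 2 estimates above 0 and 5 below and a median of -0.25, near the median of all genes. Hoxb7, its highest gene, was at 5.31, 4.29, 4.43 and 7.81 FPKM at PN21 and at 4.99, 3.82, 4.13 and 3.65 FPKM at PN98. The groups overlapped, with m145 as the highest mouse (log2 fold change -0.30, SE 0.20, adjusted p = 0.342).

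Hoxb6, a gene of lateral plate mesoderm, was at 5.30, 5.50, 3.69 and 5.76 FPKM at PN21 and at 4.20, 2.87, 3.41 and 2.298 FPKM at PN98. The groups overlapped only through m138 and m35 (log2 fold change -0.54, SE 0.20, adjusted p = 0.139). Hoxb8, known from myeloid progenitors, was at 2.65, 1.48, 1.49 and 2.34 FPKM at PN21 and at 3.39, 2.32, 2.99 and 3.41 FPKM at PN98. Its estimate had the opposite sign (0.44, SE 0.19, adjusted p = 0.179), and its groups overlapped through m106. Both genes were added after their values were seen, for an unadjusted p under 0.05.

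The remaining HoxB estimates were -0.48 for Hoxb2, 0.19 for Hoxb3, -0.25 for Hoxb4, a gene of blood stem cells, and -0.02 for Hoxb5, with adjusted p between 0.246 and 0.966.

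In HoxC, 6 of 9 genes were tested, and all 6 estimates were above 0, with a median of 0.32. None passed the test. Hoxc8, which restrains the brown fat programme when expressed in white fat progenitors, was at 32.0, 36.2, 15.0 and 40.3 FPKM at PN21 and at 41.8, 35.5, 68.7 and 39.2 FPKM at PN98. At PN21 m138 was low and at PN98 m114 was high, and the other 6 mice lay between 32.0 and 41.8 FPKM. The means were 30.9 ± 11.1 and 46.3 ± 15.2 FPKM (SD, n = 4 each), a log2 fold change of 0.61 with a 95% interval of -0.17 to 1.39 (adjusted p = 0.270). Mouse m138 also had the lowest adipocyte marker sum (14472 FPKM) and the highest lymphocyte marker sum (1103 FPKM), whose part in this value was not tested. Without m138 the log2 fold change of Hoxc8 was 0.31 (adjusted p = 0.487), and without m114 it was 0.41 (adjusted p = 0.490).

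Hoxc5 was at 4.28, 2.94, 3.13 and 4.03 FPKM at PN21 and at 5.22, 6.31, 11.4 and 5.55 FPKM at PN98. Each PN98 mouse was above each PN21 mouse, and m114 was the highest by far. The means were 3.59 ± 0.66 and 7.12 ± 2.90 FPKM (SD, n = 4 each), with the largest estimate of the 23 genes, 0.77 (SE 0.25, adjusted p = 0.103).

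The Hoxc5 sum was for 63.5% a noncoding processed transcript at chr15:102967443-103015676, which runs across much of HoxC before it reaches Hoxc5. That transcript was at 2.99, 1.01, 2.25 and 2.20 FPKM at PN21 and at 3.69, 4.12, 7.71 and 3.26 FPKM at PN98. The coding transcript was at 1.29, 1.93, 0.876 and 1.84 FPKM and at 1.53, 2.19, 3.71 and 2.28 FPKM, with overlapping groups. With protein-coding transcripts alone the Hoxc5 estimate was 0.45 (adjusted p = 0.219).

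Hoxc4 was at 2.33, 2.44, 1.96 and 1.88 FPKM at PN21 and at 2.68, 3.04, 3.33 and 2.66 FPKM at PN98. The groups did not overlap, and the log2 fold change was 0.32 (SE 0.14, adjusted p = 0.184). Hoxc6 was nearly level, at 15.5 ± 2.17 and 16.6 ± 2.72 FPKM, as was Hoxc9, a marker of subcutaneous depots, at 6.99 ± 2.72 and 7.09 ± 1.53 FPKM (SD, n = 4 each). Hoxc10, a posterior gene known to hold back browning of subcutaneous fat, was at 9.80 ± 2.99 and 12.4 ± 3.26 FPKM (log2 fold change 0.32, adjusted p = 0.461).

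In HoxD, 3 of 9 genes were tested, and all 3 estimates were below 0, with a median of -0.19. Hoxd8 was at 8.54, 6.18, 10.6 and 10.2 FPKM at PN21 and at 12.1, 9.37, 7.52 and 4.91 FPKM at PN98. The PN98 mice reached above and below all PN21 mice (log2 fold change -0.09, SE 0.27, adjusted p = 0.841). Hoxd4 had an estimate of -0.19 (adjusted p = 0.671).

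Hoxd9, which was added after its values were seen, was at 2.38, 2.61, 3.77 and 3.34 FPKM at PN21 and at 3.07, 1.67, 1.74 and 1.50 FPKM at PN98. Among the PN98 mice, only m35 overlapped the PN21 range (log2 fold change -0.44, SE 0.21, adjusted p = 0.202). The lymphocyte markers of m35 were as high as those of PN21 mice, and their part in its Hoxd9 value was not tested.

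**Figure D3:**
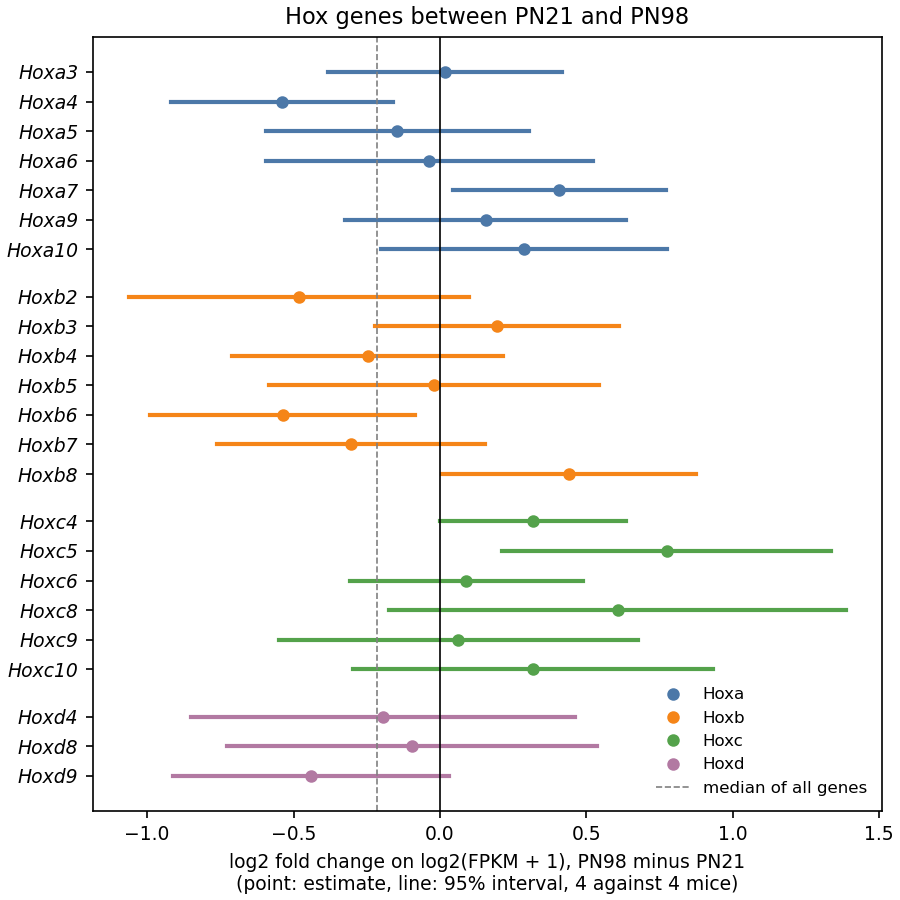
Log2 fold change of the 23 tested Hox genes on the log2(FPKM + 1) scale (x axis, PN98 minus PN21), with 95% intervals from limma, coloured by cluster; the dashed line is the median of all genes tested (-0.21). All 6 HoxC points lie right of 0 and all 3 HoxD points left of it, and the points run from -0.54 to 0.77.

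Without m35 the counts moved. Then 2 of the 23 Hox genes passed, Hoxd9 (-0.60, SE 0.17, adjusted p = 0.0454) and Hoxc5 (0.88, SE 0.26, adjusted p = 0.0461), while the share of all genes that passed rose to 22.1%. For Hoxd9, this left out the only PN98 mouse that overlapped the PN21 range. With a weight for each mouse (limma arrayWeights), 3 passed, Hoxa4 (adjusted p = 0.0312), Hoxb6 (adjusted p = 0.0212) and Hoxc5 (adjusted p = 0.0290), against 28.9% of all genes. In both settings the share of Hox genes that passed was below that of all genes. With 23 members not matched for level, this is not a result about the Hox genes.

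The direction counts depended on the scaling. With median-of-ratios scaling, 16 of 23 Hox estimates were above 0 and the median was 0.18, and with scaling to nuclear genes alone, 17 were above 0 and the median was 0.21. The median of all genes moved with it, from -0.21 to -0.02 and 0.01. Relative to all genes, the Hox median was 0.23 higher as deposited and 0.20 higher under both scalings. With protein-coding transcripts alone it was 0.15 higher, and 11 Hox estimates were above 0 and 12 below, with a median of -0.02. HoxC kept 6 of 6 estimates above 0 under all 3 scalings, but had 4 of 6 when m138 or m114 was left out. In HoxD 1 and 2 of 3 estimates were above 0 under median-of-ratios and nuclear scaling, and without m125 as deposited 2 of 3 were above 0, with a median of 0.02.

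Shares within the Hox sum do not depend on library scaling. The summed Hox FPKM was 149.0 ± 26.5 at PN21 and 171.0 ± 23.5 at PN98 (SD, n = 4 each). HoxC made up 45.8 ± 4.72% of it at PN21 and 53.6 ± 6.62% at PN98, with overlapping ranges of 39.2 to 50.4% and 46.9 to 61.8%. HoxB made up 16.0 ± 1.57% and 11.9 ± 1.89%, and its ranges of 14.5 to 18.2% and 10.02 to 14.4% nearly touched but did not overlap. HoxA held 25.0 ± 2.15% and 24.5 ± 3.57% (SD, n = 4 each), and HoxD 9.52 to 19.1% and 6.49 to 15.1%. The ratio of the HoxC to the HoxB sum was 2.47 to 3.47 at PN21 and 3.25 to 6.17 at PN98, with m114 as the highest and m35 as the lowest of the PN98 mice. These shares were given no test.

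**Figure D4:**
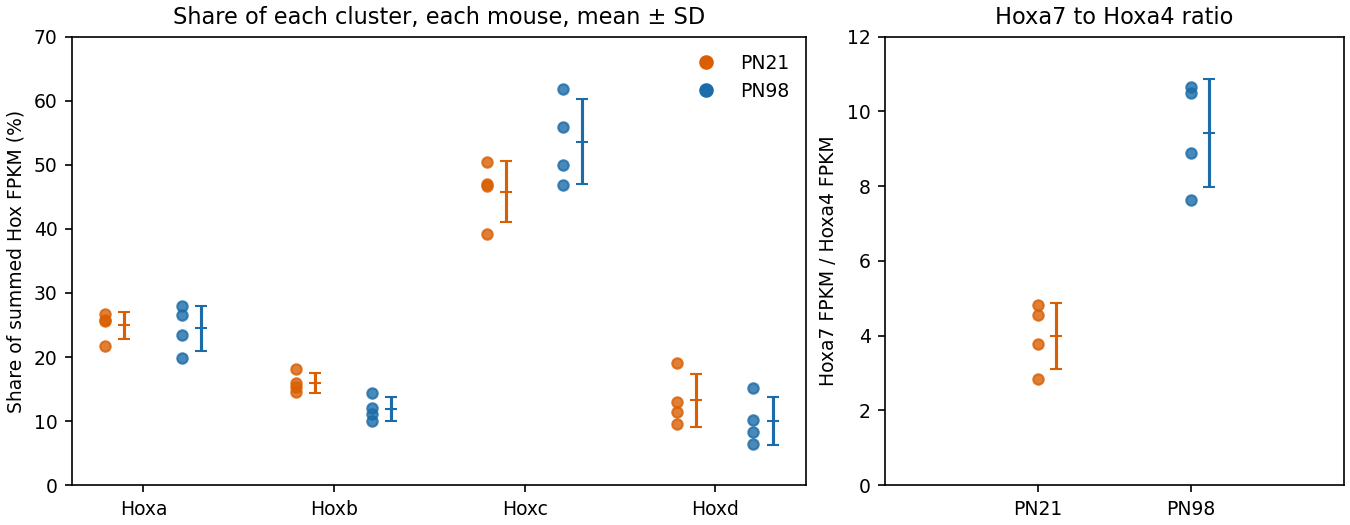
Left: share of each cluster in the summed Hox FPKM (%) of each mouse, with mean ± SD beside the points. Right: ratio of Hoxa7 to Hoxa4 FPKM in each mouse. HoxC has the largest share in all 8 mice, and the Hoxa7 to Hoxa4 ratio is 2.83 to 4.82 at PN21 and 7.63 to 10.7 at PN98.

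Likeness between members was taken over the 8 mice. The median Pearson correlation of log2(FPKM + 1) was 0.42 over 60 pairs within a cluster and 0.12 over 193 pairs between clusters, given as a description since the pairs share genes, libraries and the age difference. It was highest within HoxC (0.67, 15 pairs) and HoxD (0.66, 3 pairs) and near 0 within HoxA (0.03, 21 pairs). The HoxC sum was far the lowest in m138 (43.7 FPKM) and far the highest in m114 (127 FPKM). Correlations without these mice were not computed, so the HoxC value may rest on them. The most alike pairs were Hoxb2 with Hoxb7 (0.94) and Hoxb4 with Hoxb7 (0.91), followed by 2 pairs from different clusters, Hoxa7 with Hoxb8 (0.91) and Hoxa9 with Hoxb3 (0.87). Pairs of a HoxB and a HoxD gene had a median of 0.43 (21 pairs), above that within HoxB (0.23, 21 pairs).

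At the level of single transcripts, with the study's criteria of a value above 0 in all mice and a mean above 2 FPKM at PN21 or PN98, 24 Hox transcripts of 19 genes were tested by limma on log2 FPKM. None had an adjusted p under 0.05, against 1.36% of 23173 transcripts, and 4 had an unadjusted p under 0.05 (16.7%, against 21.8%). The 4 were transcripts of Hoxa4 (-0.81, SE 0.22, adjusted p = 0.122), Hoxb6 (-0.88, SE 0.27, adjusted p = 0.144), Hoxb8 (0.77, SE 0.25, adjusted p = 0.157) and the noncoding transcript of Hoxc5 (1.17, SE 0.41, adjusted p = 0.179). Each had the sign of its gene.

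Among the noncoding genes of the clusters, 8 of 17 with a value were tested, and 1 rose, as did 2.36% of all genes. Hoxd3os1 (chr2:74703248-74716130, minus strand) is an antisense gene whose span overlaps Hoxd8 and the annotated spans of Hoxd3 and Hoxd4, all on the other strand. It was at 3.96, 4.57, 3.61 and 5.11 FPKM at PN21 and at 6.70, 6.80, 8.46 and 9.32 FPKM at PN98. The groups were apart, and the log2 fold change was 0.73 (SE 0.17, adjusted p = 0.0465). The call was lost when any mouse other than m35 was left out, at an adjusted p of 0.0706 to 0.127. Of the genes it overlaps, Hoxd8 had an estimate of -0.09 and Hoxd4 one of -0.19, and Hoxd3 was under the filter. The library kit keeps strand, but whether the counting used it is not stated, and without it reads of these overlapping genes cannot be told apart.

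Hotairm1, a noncoding gene of HoxA, was at 30.0 to 96.9 FPKM, and its groups overlapped (log2 fold change 0.34, adjusted p = 0.553). Hottip was listed at 0 in all mice and Hotair did not exceed 0.124 FPKM. The median log2 fold change of the 8 genes was -0.14, with 4 estimates above 0 and 4 below. The estimates below 0 include microRNA loci that were at 0 in many mice. Mir196a-1 (-2.41) was at 0 FPKM in m49, m106, m114 and m125, and Mir196a-2 (-0.87) was above 0 in m49 alone. Gm53 (-1.71, adjusted p = 0.182) was at 0.302 to 13.8 FPKM at PN21 and at 0 to 0.159 FPKM at PN98, without overlap. Hoxb5os (-0.44, adjusted p = 0.401) had overlapping groups. With 4 estimates on each side and microRNA loci at 0 in many mice, the sign of this median is not a result about the noncoding genes.

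Of the cofactors, 8 TALE genes were tested, and 0 passed, with 3 estimates above 0 and 5 below and a median of -0.19. Over all genes, 5.3% passed and 33% of estimates were above 0, so these counts are near those shares. Pknox1 had a log2 fold change of -0.67 (adjusted p = 0.147).

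Of the chromatin regulators that hold Hox patterns, 0 of 14 genes of the Trithorax and H3K27 demethylase list passed, with 11 estimates below 0 and a median of -0.39. In the Polycomb list 0 of 28 passed, with 19 estimates below 0 and a median of -0.23, near that of all genes. The lowest p in it was that of Phf19, a subunit of Polycomb complex PRC2 (-0.62, SE 0.15, adjusted p = 0.0581). Ezh2, the methyltransferase of PRC2, had an estimate of -1.14 (SE 0.32, adjusted p = 0.0803). The counts of both lists stand beside 5.3% of all genes that passed and 33% with an estimate above 0. In lists of this size they are near those shares.

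Of the upstream regulators, Cdx1, Cdx2 and Cdx4, which switch on trunk Hox genes in the embryo, did not exceed 0.0222 FPKM. In the list of Cdx and retinoid genes 0 of 11 tested genes passed (median -0.12), against 5.3% of all genes. Retinoid receptors were present, with Rarg at 10.1 to 25.8 FPKM and Rxra at 19.0 to 31.3 FPKM.

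Of 40 other positional and depot genes, 19 were tested and 0 passed (6 estimates above 0, 13 below, median -0.22). These counts, too, are near the shares of all genes (5.3% passed and 33% above 0). Tbx15 had an estimate of -0.55 (SE 0.27, adjusted p = 0.221) and Shox2 one of 0.33 (SE 0.29, adjusted p = 0.468). The lowest p was that of Nr2f1, a nuclear receptor, which was at 3.47, 2.31, 3.94 and 4.55 FPKM at PN21 and 2.05, 1.32, 1.17 and 0.588 FPKM at PN98 (-1.01, SE 0.25, adjusted p = 0.0536).

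Genes of the cell marker lists were tested in the same fit, in which 5.3% of all genes passed (2.36% higher and 2.94% lower at PN98). In lists this short, a count of 0 is near that share. Of 10 adipocyte markers 4 rose, Cidec (2.16, adjusted p = 0.00213), Plin4 (2.13, adjusted p = 0.00220), Adipoq (1.44, adjusted p = 0.0111) and Lipe (0.99, adjusted p = 0.0421), all genes of lipid storage or release or, for Adipoq, a hormone of mature adipocytes. Of 12 stromal progenitor markers F3 rose (0.93, adjusted p = 0.0228), and Dlk1, a preadipocyte gene (-2.91, adjusted p = 0.00553), and Clec11a (-1.44, adjusted p = 0.0308) fell. Of 11 skeletal muscle markers 2 rose, Actn3 (3.62, adjusted p = 0.0335) and Atp2a1 (4.20, adjusted p = 0.0405), and of 6 epithelial markers Epcam fell (-1.16, adjusted p = 0.0422). None of 12 lymphocyte, 8 endothelial, 9 macrophage or 4 sex-linked genes passed, and the medians of the lists were -2.19, -0.47, -0.15 and -0.18. The adipocyte median was 0.93, the progenitor median -0.49, the muscle median 3.25 and the epithelial median -1.57.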

How the data were processed

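Total RNA of ING WAT from 8 mice was taken through poly(A) selection and a directional library kit. The authors, per the labels and the study's methods, used CASAVA 1.8.2, FastQC, STAR 2.3.0 and Cufflinks 2.1.1 on mm10 and deposited FPKM, an expression value that corresponds to no whole count, for 91969 transcripts. In 40441 transcripts a decimal mark was lost. It was restored from the authors' deposited SD, average and score columns, which cover 10 libraries, and all 5017 restored transcripts that also stand in the second deposited table had values there that were equal within 1e-05 FPKM. After 15 were filled from it, 34 transcripts were left out. Of the 81 Hox transcripts, 43 had restored marks. The second table also holds the authors' test columns for the age comparison, which were not used.

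Transcripts were given their own gene from GENCODE vM21 and summed. Genes with a mean of at least 1 FPKM were tested with limma 3.58.1 (R 4.3.3) on log2(FPKM + 1), with Benjamini-Hochberg adjustment. The labels do not say whether mice shared a litter, so p-values measure the spread between these mice. The code was tested on simulated data. The Hox genes and the gene lists were chosen with earlier results of these data known. Values per mouse are given for the highest gene of each cluster, genes with no overlap, the study's marker Hox genes, except 1 under the filter that is not reported here, 2 genes with an unadjusted p under 0.05 and Hoxd9, the last 3 chosen after their values were seen. From other lists, genes with an adjusted p under 0.05 are named, beside some with the lowest p or a known role, named after their values were seen. Alternatives were the pseudocount, the filter, the scaling, a mean-variance trend, weights for each mouse, leaving out each mouse and, added after seeing the data, protein-coding transcripts alone.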

Additional observations from a re-analysis of the deposited data

Results flagged for a closer look

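In a group of 4 mice, a value was marked where its gap to the nearest mouse took more of the group's range than Dixon's 95% limit for 4 values. Of 54 groups looked at (23 genes and 4 cluster sums at 2 ages), 3 were marked, and chance marks about 1 in 20.

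Hoxd9 at PN98 was marked for m35, at 3.07 FPKM against 1.50 to 1.74 FPKM in the other mice (gap 0.847 of the range). The same mouse had the highest lymphocyte marker sum of the PN98 mice (999 FPKM against 20.8 to 189.7 FPKM), and its part in the Hoxd9 value was not tested.

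The summed FPKM of HoxC was marked at both ages. At PN21 m138 was low, at 43.7 FPKM against 75.8 to 80.7 FPKM (gap 0.867). At PN98 m114 was high, at 127 FPKM against 77.8 to 86.0 FPKM (gap 0.834). Hoxc8 alone was at 15.0 FPKM in m138 and 68.7 FPKM in m114, beside 32.0 to 41.8 FPKM in the other 6 mice.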

How the results depend on the processing

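The PN21 and PN98 groups were different mice, so the comparison was unpaired. The numbers in the labels only name the mice. The count of Hox genes with an adjusted p under 0.05 was 0, also with a pseudocount of 0.1, no filter, a filter of at least 2 FPKM, both scalings, a mean-variance trend and protein-coding transcripts alone. It was 3 with a weight for each mouse and 0 to 2 when each mouse was left out, with 2 only without m35. The count with an unadjusted p under 0.05 was 5, and 2 to 5 when each mouse was left out (2 without m49 or m125, 3 without m138, m106 or m114), and 3 with protein-coding transcripts alone. The count of Hox genes lower at PN98 was 11. It was 18 with no filter, where 33 genes were tested, 7 with median-of-ratios scaling, 6 with nuclear scaling and 7 to 14 when each mouse was left out, with 7 without m125. The median log2 fold change was 0.02. It was 0.18 with median-of-ratios scaling, 0.21 with nuclear scaling and -0.06 to 0.10 when each mouse was left out. The count of Hox transcripts with an unadjusted p under 0.05 was 4. It was 8 with nuclear scaling and 3 to 8 when each mouse was left out, with 8 without m35, and the count with an adjusted p under 0.05 was 0 under each setting. Over all genes the count with an adjusted p under 0.05 was 854. It was 4647 with a weight for each mouse and 210 to 3543 when each mouse was left out, with 3543 without m35, and the cause was not tested. Hoxa4, Hoxa7, Hoxb6, Hoxb7, Hoxb8, Hoxc4, Hoxc5 and Hoxc8 kept their direction in all 16 alternatives and Hoxd8 in 12 of 16. Hoxd3os1 kept its direction in 15 of 15.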
